A study of Homo sapiens with 16 samples.

Results

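ID1, ID2, ID3, ID4, HES1, SMAD6, SMAD7 and BAMBI are genes whose transcription reports on BMP, TGF-β and Notch signalling. They were taken by gene name from the array, with every probe that carried the name, which gave 8 genes of 30982 gene names on the array and 11 probes of 41000. The values came from Caco-2 cells, a human colon carcinoma line that grows as an epithelium, used here in the undifferentiated state and exposed for 6 h in medium with little serum. PT-G cells received gliadin digested with pepsin and trypsin, PT cells received the same digestion without gliadin, p31-43 cells received that synthetic gliadin peptide at 150 µg/ml, and MED-CTL cells were kept in medium. The 4 conditions had 4 arrays each, from 4 independent experiments with cells a passage or so apart, and the comparison of PT-G with PT is the one that separates gliadin from the digestion mixture. How much digest the PT-G and PT cells received is not given in the sources used here. A single cell line in culture holds no immune cells, which limits it as a model of the gut wall.

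BMP and TGF-β ligands bind receptor kinases that phosphorylate receptor SMADs, and these enter the nucleus with SMAD4. The ID genes are classical targets of the BMP branch. Their products have a helix-loop-helix but no DNA-binding region, so they hold other helix-loop-helix factors off DNA. SMAD6, SMAD7 and BAMBI are induced by the same signals and inhibit them, the SMADs at the receptor and in the nucleus and BAMBI as a receptor without kinase activity. HES1 is a repressor that Notch switches on through RBPJ, and in the intestine it keeps progenitor cells from becoming secretory cells.

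The 3 genes that the results turn on are ID1 and ID2, which rose, and HES1, which did not pass the test. Their promoters are shown as the 250 bases before the start of each gene, from RefSeq (GRCh38.p14), with the capitals marking the motifs found. ID1 lies at chr20:31605039-31605288, ID2 at chr2:8681806-8682055 and HES1 at chr3:194135898-194136147, each read on the + strand.
ID1: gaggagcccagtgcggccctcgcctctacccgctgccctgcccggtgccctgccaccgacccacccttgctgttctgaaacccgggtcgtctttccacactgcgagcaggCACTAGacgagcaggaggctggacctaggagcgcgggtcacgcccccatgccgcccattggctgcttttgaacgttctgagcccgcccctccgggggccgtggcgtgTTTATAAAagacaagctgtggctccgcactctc
ID2: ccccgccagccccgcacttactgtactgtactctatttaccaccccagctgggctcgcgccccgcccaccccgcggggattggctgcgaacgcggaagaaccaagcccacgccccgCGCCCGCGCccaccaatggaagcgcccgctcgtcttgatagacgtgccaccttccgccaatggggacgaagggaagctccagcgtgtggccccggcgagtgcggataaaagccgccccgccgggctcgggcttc
HES1: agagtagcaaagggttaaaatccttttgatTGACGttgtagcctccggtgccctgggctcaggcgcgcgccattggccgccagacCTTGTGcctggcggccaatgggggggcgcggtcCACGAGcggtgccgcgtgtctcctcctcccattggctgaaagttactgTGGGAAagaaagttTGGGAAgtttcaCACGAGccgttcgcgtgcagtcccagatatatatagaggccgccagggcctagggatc

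Both strands were searched for the BMP-type SMAD element GGCGCC, the RBPJ core TGGGAA, the N box CACNAG that HES repressors bind, the CRE TGACGTCA and its core TGACG, the AP-1 site TGANTCA, the EGR site GCGNGGGCG and the TATA letters TATAAA. In HES1, TGGGAA stood 84 and 70 bases before the start, and CACNAG stood 165, 132 and 58 bases before it, with TGACG 220 bases before it. In ID1 the TATA letters were read on both strands over the same bases, 33 and 31 bases before the start, and CACNAG stood 140 bases before it. ID2 held GCGNGGGCG 134 bases before the start. Of 35116 promoters of the same length, TGGGAA was in 20.8%, CACNAG in 32%, TGACG in 21.2%, GCGNGGGCG in 8.41% and TATAAA in 10.7%. GGCGCC, found in 16.4% of all promoters, was in none of the 3 windows shown and was in that of BAMBI 3 times. These matches describe letters only. The promoters of ID1, ID2 and HES1 held 66.0%, 69.2% and 59.2% G and C, against a median of 58.0%.

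Levels are given as log2 intensity after normalization with the quantiles method, and differences as log2 fold changes with their standard error (SE). A probe was called at a nominal p under 0.01 in limma, with the Benjamini-Hochberg adjusted p beside it, over the 40982 probes tested. All 11 probes were among them, and no spot of the 8 genes was saturated or marked as an outlier. Median intensities of the arrays lay between 153 and 410 over a local background of 48 to 65, and 27660 to 33947 spots of an array were well above background. Of 10 intestinal epithelial markers, 9 were well above background on all 16 arrays and CDX1 on 1. Markers of other cell types were read too: 3 of 4 for leukocytes, 2 of 3 for endothelium and 3 of 5 for fibroblasts were well above background on all 16. PTPRC, the defining leukocyte marker, and CDH5, that of endothelium, were so on none. The names of the arrays bear 4 dates, called runs 1 to 4 here, with 1 array of each condition to a date. Runs 1 and 2 are dated in February and runs 3 and 4 in June, and these form the 2 batches of the alternatives. What the dates mark is not stated. The arrays lay on 5 slides, of which slide 3 held replicate 3 of MED-CTL, p31-43 and PT-G but not of PT. Slide 5 held arrays of runs 3 and 4. Every probe but that of ID4 was well above background on all 16 arrays.

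ID1 and ID2 were higher after PT-G and after PT than in medium, and neither was called after p31-43. Against MED-CTL, PT-G called 2 of the 11 probes, ID1 and the 3′ probe of ID2, beside 3.43% of all probes tested. PT called 3 of the 11, ID1 and both probes of ID2, beside 3.64% of all. After p31-43 none of the 11 was called, beside 0.403% of all, and none had an unadjusted p under 0.05, beside 2.15% of all. Every called probe was higher, where 1.91% of all probes were called higher after PT-G and 1.76% after PT. After adjustment over all probes in limma, 1 of the 11 passed 0.05 after PT-G, beside 0.93% of all, and 0 after PT, beside 0.83%. At an unadjusted p under 0.05 there were 3 after each, beside 7.94% and 8.95% of all. The adjusted counts were higher with the runs as a block: 3 of the 11 passed after PT-G, beside 5.73% of all, and ID1 and the 5′-ward probe of ID2 after PT, beside 6.5%. The median log2 fold change of the 11 probes was 0.034 after PT-G, 0.12 after PT and 0.16 after p31-43, against −0.0056, −0.013 and −0.0032 over all probes. These genes were chosen with earlier results of these data known, so the shares do not test them as a set.

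**Figure D1:**
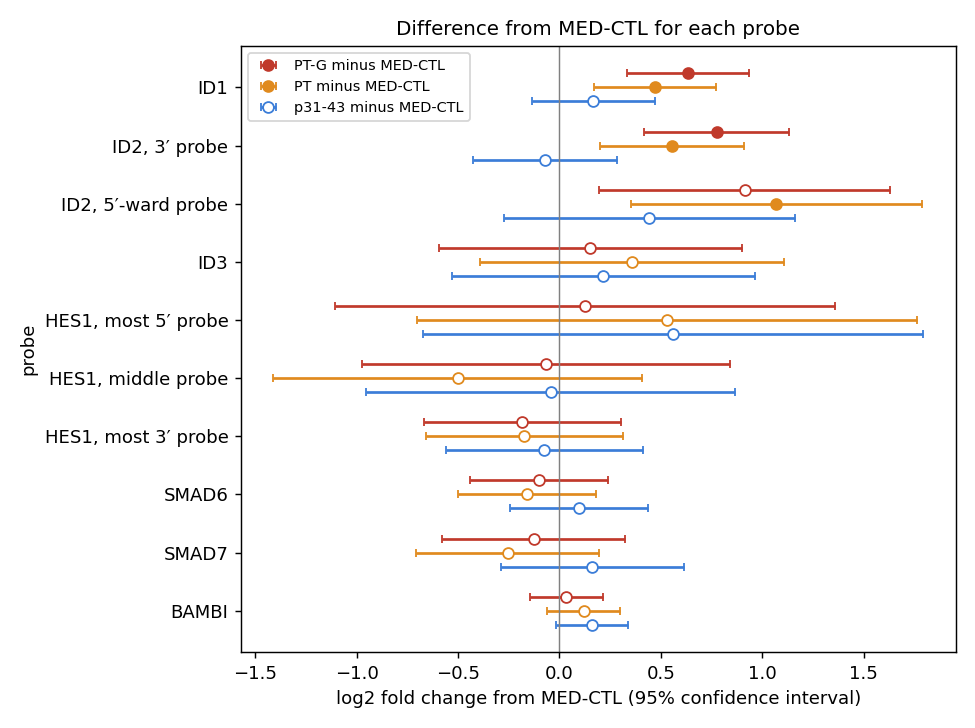
Log2 fold change from MED-CTL (x axis, with the 95% confidence interval from limma) of each probe of 7 genes (y axis) after PT-G, PT and p31-43, 4 arrays per condition; filled points were called at a nominal p under 0.01 and ID4 is not drawn. The filled points are ID1 and the 3′ probe of ID2 after PT-G and PT, and the 5′-ward probe of ID2 after PT.

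ID1, which encodes the inhibitor of DNA binding most often used as a readout of BMP signalling, was measured by probe A_23_P252306. Its level in MED-CTL replicates 1 to 4 was 15.96, 15.50, 15.41 and 15.37, and in p31-43 it was 15.84, 16.03, 15.56 and 15.49. With PT it was 16.22, 16.11, 15.94 and 15.86, and with PT-G 16.16, 16.30, 16.14 and 16.18. All PT-G arrays lay above all MED-CTL and all p31-43 arrays, while the PT arrays overlapped those of MED-CTL through MED-CTL replicate 1. Of all probes, 2.02% lay apart in that direction between PT-G and MED-CTL and 2.97% between PT-G and p31-43.

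PT-G raised ID1 by 0.63 (SE 0.14; limma, adjusted p = 0.0526), or 1.55-fold, and each run gave an increase, from 0.34 to 0.81. PT raised it by 0.47 (SE 0.14; limma, adjusted p = 0.197), or 1.39-fold, with 0.15 to 0.72 in the 4 runs. After p31-43 the difference was 0.17 (SE 0.14; limma, adjusted p = 1), between 0.069 and 0.34 in the runs. ID1 was also higher after PT-G than after p31-43, by 0.47 (SE 0.14; limma, adjusted p = 0.186). That call was lost with median scaling (0.51; limma, adjusted p = 0.354), without slide 3 or run 3 (0.43; limma, adjusted p = 0.397 and 0.444) and without p31-43 replicate 3 or 4 or PT-G replicate 2 or 4, over a range of 0.39 to 0.57 with 1 array left out. Between PT-G and PT it differed by 0.16, with a 95% confidence interval of −0.14 to 0.47 (limma, adjusted p = 1).

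The PT call on ID1 depended on single arrays and on the processing. It was lost without MED-CTL replicate 2, 3 or 4 or PT replicate 1 or 2 (limma, adjusted p = 0.424 without MED-CTL replicate 2). The fold change lay between 0.41 and 0.60 when any one array was left out. The call was also lost with the background-subtracted signal (0.47; limma, adjusted p = 0.479) and without run 3 (0.45; limma, adjusted p = 0.415). With only the 2 groups compared it was lost too (limma, adjusted p = 0.413). With a block for the run it was kept (limma, adjusted p = 0.011). The PT-G increase kept its call without any one array.

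ID2, which encodes an inhibitor of DNA binding that is found widely in epithelia, had 2 probes, 1475.5 bases apart on the genome. The probe nearer the 3′ end, A_32_P69368, stood at 13.10, 13.01, 13.56 and 13.20 in MED-CTL replicates 1 to 4 and at 13.16, 13.26, 12.79 and 13.38 in p31-43. It stood at 13.92, 13.56, 13.80 and 13.81 in PT and at 13.85, 13.64, 14.24 and 14.25 in PT-G. All PT and PT-G arrays lay above all MED-CTL and p31-43 arrays. Of all probes, 2.02% lay so for PT-G and 2.28% for PT against MED-CTL. Against p31-43 the shares were 2.97% for PT-G and 2.55% for PT. The narrowest gap was between MED-CTL replicate 3 and PT replicate 2, which nearly met at 13.558 and 13.564.

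PT-G raised this probe by 0.78 (SE 0.17; limma, adjusted p = 0.0425), or 1.71-fold, with increases of 0.53 to 1.05 in the 4 runs. PT raised it by 0.56 (SE 0.17; limma, adjusted p = 0.195), with 0.25 to 0.91 in the runs. The PT call was lost without MED-CTL replicate 1, 2 or 4 or PT replicate 1, 3 or 4, at 0.49 to 0.67 over the single arrays left out (limma, adjusted p = 0.475 without MED-CTL replicate 2). It was also lost with the background-subtracted signal (0.57; limma, adjusted p = 0.417) and with a block for the slide (0.54; limma, adjusted p = 0.0982). After p31-43 it differed from MED-CTL by −0.071 (SE 0.17; limma, adjusted p = 1), with a difference of −0.77 in run 3 and of 0.14 to 0.18 in the others. Without slide 3 that difference was 0.16. Against p31-43, PT-G gave 0.85 (SE 0.17; limma, adjusted p = 0.0243) and PT gave 0.63 (SE 0.17; limma, adjusted p = 0.135), higher in 4 of 4 runs each. PT-G and PT differed by 0.22, with a 95% confidence interval of −0.14 to 0.57 (limma, adjusted p = 1).

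The other ID2 probe, A_23_P143143, lies nearer the 5′ end. It stood at 12.88, 12.32, 11.67 and 13.08 in MED-CTL, at 13.00, 13.16, 12.21 and 13.37 in p31-43, at 13.31, 13.33, 13.85 and 13.75 in PT and at 13.49, 13.31, 12.76 and 14.05 in PT-G. On this probe the lowest array of each of MED-CTL, p31-43 and PT-G was replicate 3, and PT replicate 3 was the highest PT array. PT raised the probe by 1.07 (SE 0.33; limma, adjusted p = 0.226), and the PT and MED-CTL arrays did not overlap, as in 2.28% of all probes in that direction. Its value after PT-G was 0.91 (SE 0.33; limma, adjusted p = 0.38), positive in 4 of 4 runs but short of the threshold. It passed with the replicate number as a block (limma, adjusted p = 0.0593), with a block for the run (limma, adjusted p = 0.0468) and without slide 3 (0.86; limma, adjusted p = 0.156). With a block for the slide its adjusted p was 0.00074 in limma, where 9.32% of all probes had an adjusted p under 0.05. It also passed with median scaling (1.01; limma, adjusted p = 0.302) and array weights (0.83; limma, adjusted p = 0.0631). Without run 3 it passed too (0.86; limma, adjusted p = 0.173). The value after p31-43 was 0.44 (SE 0.33; limma, adjusted p = 1), positive in 4 of 4 runs, from 0.27 to 0.68. It was not called in the main model and passed with the slide as a block (0.46; limma, adjusted p = 0.203). The PT call was lost without run 3, at 0.70 (limma, adjusted p = 0.31). It was also lost without MED-CTL replicate 2 or 3 or PT replicate 3 or 4, over 0.80 to 1.27 with 1 array left out. By run, PT exceeded MED-CTL by 2.18 in run 3 and by 0.44 to 0.98 in the others.

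**Figure D2:**
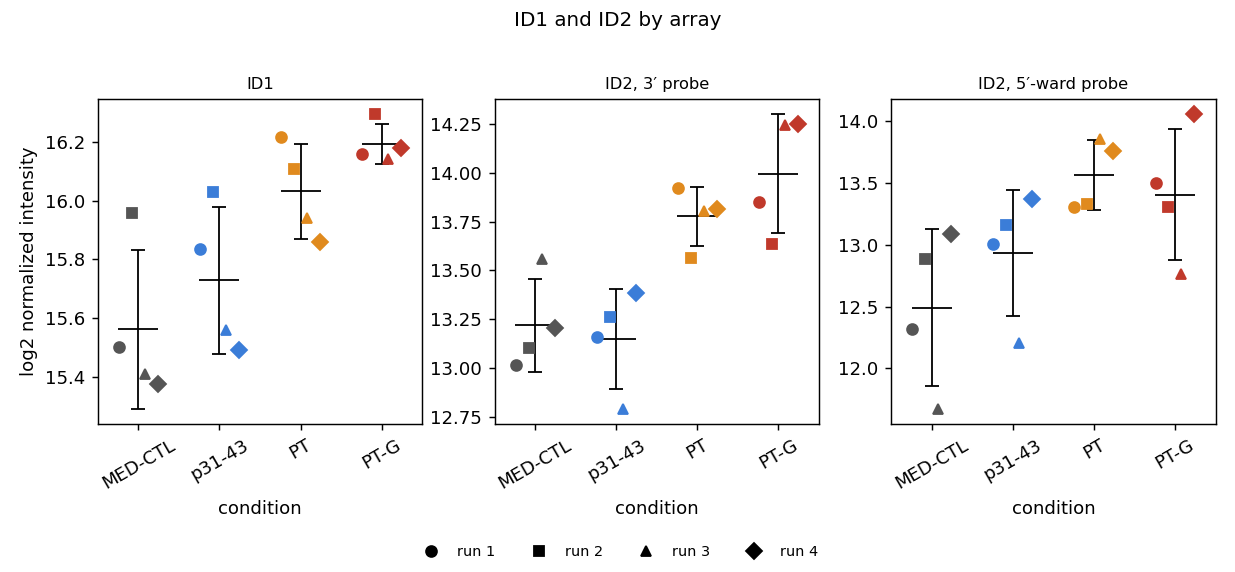
Log2 normalized intensity (y axis, a scale of its own in each panel) of ID1 and the 2 probes of ID2 on the 4 arrays of each condition (x axis), with the run as the symbol and the mean ± SD as a line and bars. The PT and PT-G arrays of the 3′ probe of ID2 lie above all MED-CTL and p31-43 arrays, though PT replicate 2 (13.564) nearly meets MED-CTL replicate 3 (13.558). Run 3 is low on the 5′-ward probe in MED-CTL, p31-43 and PT-G.

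ID3, whose product acts as those of ID1 and ID2 do, was not called in any comparison. Its level was 10.40, 9.66, 9.09 and 10.41 in MED-CTL, 10.15, 10.60, 9.40 and 10.27 in p31-43, 9.96, 10.31, 10.28 and 10.44 in PT and 10.26, 10.32, 9.10 and 10.48 in PT-G. The groups overlapped throughout, and the 3 lowest arrays were those of slide 3. The difference from MED-CTL was 0.15 (SE 0.35) after PT-G, 0.36 (SE 0.35) after PT and 0.22 (SE 0.35) after p31-43, with a 95% confidence interval of −0.59 to 0.90 for PT-G. An increase of the size seen in ID1 lies inside that interval, so the arrays did not separate the absence of a change in ID3 from one like that of ID1.

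ID4 was near the background. Its probe was well above background on 1 of 16 arrays, MED-CTL replicate 4 at 6.37, and lay between 5.87 and 6.14 on the others. No fold is given for it.

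HES1, the Notch target, was not called by any of its 3 probes in any of the 6 comparisons. The most 3′ probe, A_23_P17998, read 14.88, 14.06, 14.95 and 14.63 in MED-CTL, 14.11, 14.69, 14.87 and 14.56 in p31-43, 14.08, 14.47, 14.52 and 14.76 in PT and 13.98, 14.45, 14.63 and 14.73 in PT-G. These groups overlapped. The differences from MED-CTL were −0.18 after PT-G (95% confidence interval −0.67 to 0.30), −0.17 after PT (−0.66 to 0.31) and −0.074 after p31-43 (−0.56 to 0.41), each with an SE of 0.23 in limma. For this probe alone, a rise of 0.63, as ID1 showed after PT-G, was outside the interval, and the difference between the 2 genes was not itself tested.

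The most 5′ probe of HES1, A_24_P938293, lies 2132 bases from the most 3′ one. It read 14.58, 13.81, 11.63 and 14.25 in MED-CTL, 13.75, 14.62, 13.84 and 14.30 in p31-43, 13.58, 14.31, 14.15 and 14.33 in PT and 13.75, 14.24, 12.28 and 14.51 in PT-G. MED-CTL replicate 3 and PT-G replicate 3 stood far below every other array. The differences from MED-CTL were 0.13 after PT-G, 0.53 after PT and 0.56 after p31-43 (SE 0.57 each), with a 95% confidence interval of −1.11 to 1.36 for PT-G, and without slide 3 the first became −0.046 and the second −0.12. The middle probe, A_23_P6596, 296 bases from the most 5′ one, gave −0.066, −0.50 and −0.043 (SE 0.42 each), over levels between 8.40 and 10.56, and its interval for PT-G was −0.97 to 0.84. A rise of 0.63 lay inside both of these intervals, so the 3 probes did not all bound HES1 below it. Its highest value in MED-CTL, p31-43 and PT-G was on replicate 3.

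The difference between the probes nearest the 2 ends of a transcript set MED-CTL replicate 3 and PT-G replicate 3 apart in both HES1 and ID2, and p31-43 replicate 3 in HES1. The most 3′ probe of HES1 exceeded the most 5′ one by 3.32 on MED-CTL replicate 3, 2.35 on PT-G replicate 3 and 1.03 on p31-43 replicate 3, and by 0.068 to 0.50 on the other 13 arrays. For ID2 the corresponding values were 1.89, 1.48 and 0.58, against −0.049 to 0.69 on the other 13. Over 2157 transcripts with a probe pair at least 1000 bases apart, the median of that difference, relative to its mean over arrays, was 0.20 on MED-CTL replicate 3, 0.12 on PT-G replicate 3 and −0.040 on p31-43 replicate 3, and it was as high as 0.16 on PT-G replicate 4 and 0.088 on PT replicate 4. PT replicate 3 lay on another slide, at 0.030. The part of this in the results for the 5′-ward probes was not tested. Without slide 3, the 3′ probe of ID2 and ID1 kept their calls after PT-G, and ID1 lost its call after PT (0.42; limma, adjusted p = 0.322).

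**Figure D3:**
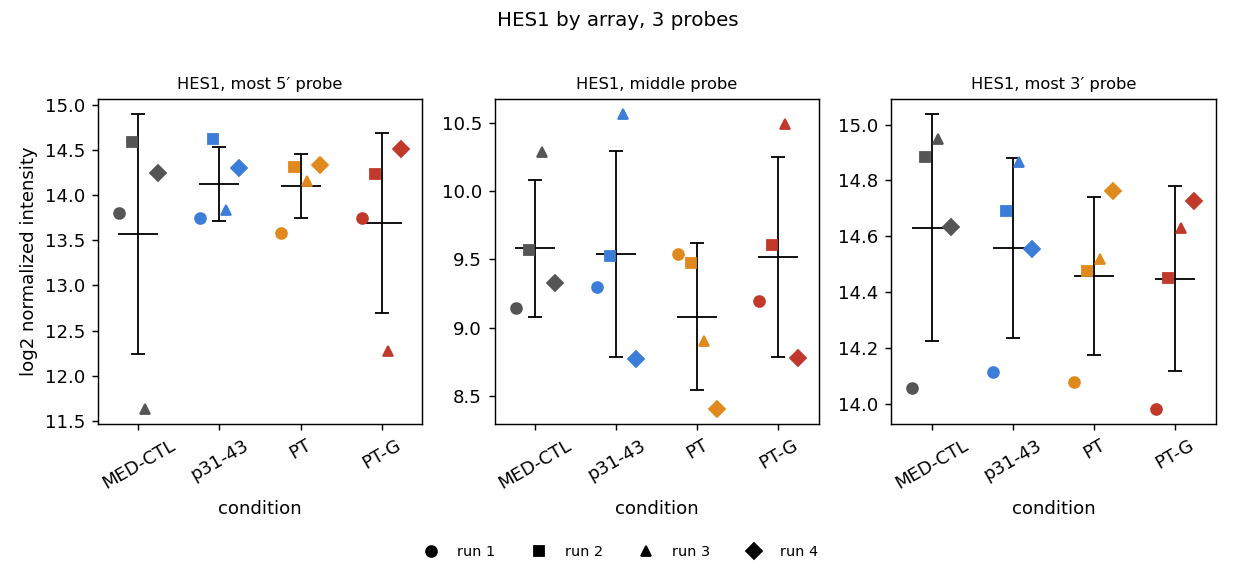
Log2 normalized intensity (y axis, a scale of its own in each panel) of the 3 probes of HES1 on the 4 arrays of each condition (x axis), with the run as the symbol and the mean ± SD as a line and bars. On the most 5′ probe run 3 stands at 11.63 in MED-CTL and 12.28 in PT-G, and the conditions overlap on every probe.

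SMAD6 and SMAD7 encode the inhibitory SMADs, SMAD6 acting mainly on the BMP branch and SMAD7 on both. SMAD6 read 8.09, 7.95, 7.53 and 7.90 in MED-CTL, 8.03, 8.03, 8.14 and 7.65 in p31-43, 8.02, 7.90, 7.49 and 7.42 in PT and 7.84, 7.87, 7.82 and 7.53 in PT-G. It gave −0.10 after PT-G, −0.16 after PT and 0.10 after p31-43 (SE 0.16 each), with overlapping groups and no call.

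SMAD7 read 8.70, 8.61, 8.45 and 8.32 in MED-CTL, 9.09, 8.51, 8.63 and 8.50 in p31-43, 8.87, 8.27, 7.97 and 7.95 in PT and 8.75, 8.47, 8.37 and 7.98 in PT-G. Run 1 gave the highest array in p31-43, PT and PT-G. The differences from MED-CTL were −0.13 after PT-G, −0.26 after PT and 0.16 after p31-43 (SE 0.21 each), none called. Between PT and p31-43, SMAD7 differed by −0.42 (SE 0.21; limma, adjusted p = 0.775), and PT was below p31-43 in 4 of 4 runs, by 0.22 to 0.66. For p31-43 and PT the replicate number equals the run. This difference passed the threshold with the replicate number as a block (limma, adjusted p = 0.0573) and with a block for the run (limma, adjusted p = 0.0724).

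BAMBI, the decoy receptor, was expressed at a level with little spread. It read 14.81, 14.73, 14.91 and 14.89 in MED-CTL, 15.04, 15.00, 14.96 and 14.98 in p31-43, 14.72, 14.86, 15.08 and 15.15 in PT and 14.84, 14.90, 14.81 and 14.92 in PT-G. All p31-43 arrays lay above all MED-CTL arrays and all PT-G arrays. Groups did not overlap in that direction for 0.483% of all probes between p31-43 and MED-CTL, and for 2.8% between p31-43 and PT-G. The difference from MED-CTL was 0.16 after p31-43 (SE 0.084; limma, adjusted p = 1), 0.12 after PT (limma, adjusted p = 0.777) and 0.034 after PT-G (limma, adjusted p = 1), so none was called. Its 95% confidence interval after PT-G was −0.15 to 0.21.

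**Figure D4:**
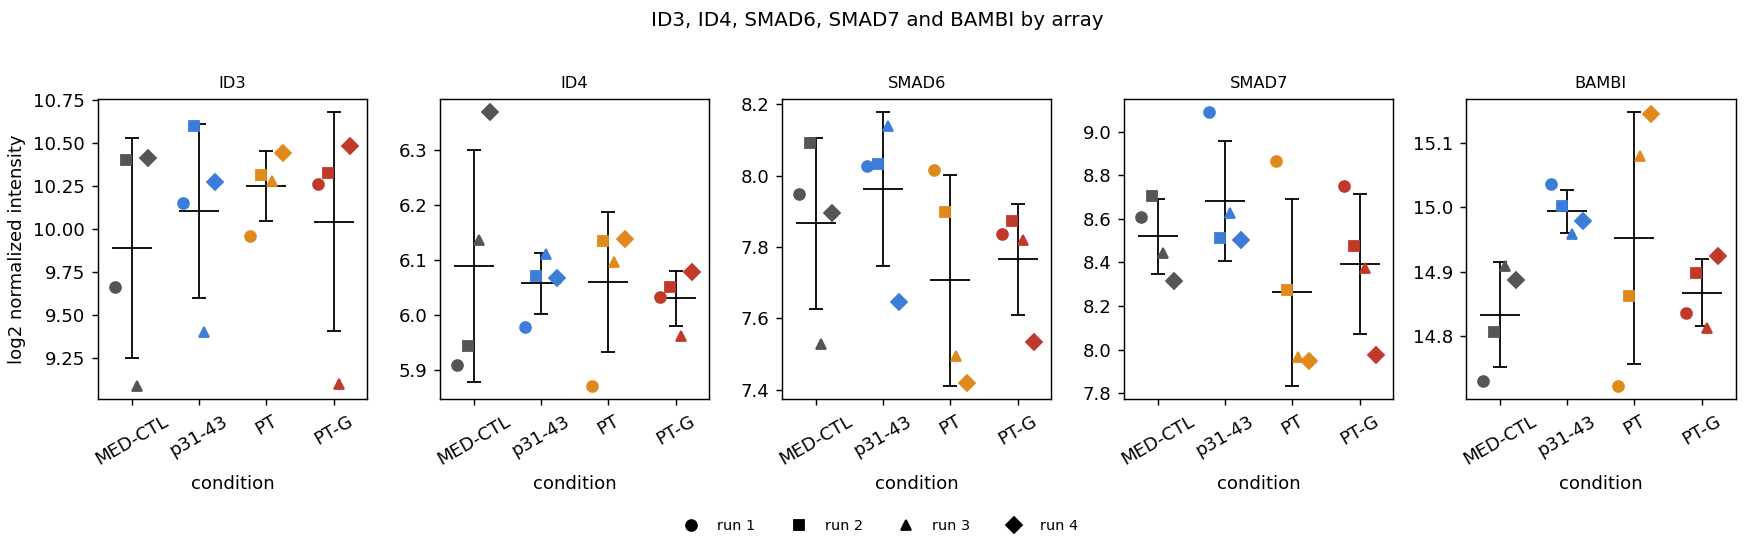
Log2 normalized intensity (y axis, a scale of its own in each panel) of ID3, ID4, SMAD6, SMAD7 and BAMBI on the 4 arrays of each condition (x axis), with the run as the symbol and the mean ± SD as a line and bars. The conditions overlap for the most part, and the 4 p31-43 arrays of BAMBI, at 14.96 to 15.04, lie above the 4 of MED-CTL.

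Between the treatments, no probe of the 8 genes was called for PT-G against PT, beside 0.0903% of all probes, and none had an unadjusted p under 0.05 in limma, beside 0.761% of all. PT-G against p31-43 called 2 of the 11 (beside 3.7% of all), ID1 and the 3′ probe of ID2. PT against p31-43 called 1 (beside 3.14%), the 3′ probe of ID2, where ID1 gave 0.30 (limma, adjusted p = 0.701) with 4 of 4 runs higher. That ID1 value passed the threshold with a block for the run (limma, adjusted p = 0.089), the slide (limma, adjusted p = 0.094) or the 2 batches (limma, adjusted p = 0.174), and not with the replicate block. These comparisons share arrays with those against MED-CTL. With the replicate number as a block, PT against p31-43 called 2 probes, the 3′ probe of ID2 and SMAD7, beside 2879 of all 40982 probes.

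Other genes of the same pathways were taken from lists of ligands, receptors, SMADs, inhibitors, targets and partner factors, 108 of 109 of which were on the array. By their brightest probe, PT-G called 12 of them higher and 2 lower (13%, against 3.43% of all probes), PT called 10 higher and 3 lower (12%, against 3.64%), and p31-43 called none (against 0.403%). The lists were chosen with earlier results of these data known. Of the 108 genes, 82 were well above background on all 16 arrays, while the shares of all probes include dim ones. These shares are therefore unlike measures, and an excess of the pathways was not tested. The median difference over the lists was 0.011 after PT-G and −0.019 after PT, against −0.0056 and −0.013 over all probes. None was called between PT-G and PT, against 0.0903% of all. Leaving out some single array ended the call of BMP6, DLL3, JAG1, SMURF1 and TMEPAI after PT, of BMPR2, MFNG, SKIL and TMEPAI after PT-G and of NOTCH4 after p31-43, all described next.

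Of 18 ligands, 2 were called higher after PT-G. GDF15, a distant TGF-β relative made by stressed cells, stood at 14.72 ± 0.39 in MED-CTL (SD, n = 4 arrays) and rose by 1.23 after PT-G (SE 0.19; limma, adjusted p = 0.00804) and by 1.17 after PT (limma, adjusted p = 0.0115). BMP2, a ligand of the branch that drives ID genes, stood at 11.17 ± 0.44 and rose by 0.99 after PT-G (SE 0.21; limma, adjusted p = 0.0351) and by 0.84 after PT (limma, adjusted p = 0.0852). BMP6, another such ligand, fell by 0.48 after PT (SE 0.16; limma, adjusted p = 0.258).

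Of 13 receptors, both treatments called TGFBR2, the type II receptor for TGF-β, and BMPR2, that for BMPs. TGFBR2 rose by 0.69 after PT-G (SE 0.14; limma, adjusted p = 0.0319) and by 0.61 after PT (limma, adjusted p = 0.0645), and its dimmer probe gave 0.59 and 0.51 and was not called. BMPR2 rose by 0.42 after PT-G and by 0.54 after PT (SE 0.13 each; limma, adjusted p = 0.239 and 0.0851). Its PT-G call was lost without MED-CTL replicate 1, 2 or 3 or PT-G replicate 1 or 4 (0.34 to 0.51 over the single arrays left out), without slide 3 or run 3, and with the background-subtracted signal, the filter on dim probes, the intensity trend or only the 2 groups compared. The dimmer BMPR2 probe was not called, at 0.40 after PT-G and 0.41 after PT (limma, adjusted p = 1 and 0.843). None of the 6 receptor SMADs and SMAD4 was called against MED-CTL.

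Among 19 inhibitors, TGIF (TGIF1), a repressor that binds SMADs, and SKIL, a SMAD corepressor, were called after PT-G, the first at 0.61 (SE 0.16; limma, adjusted p = 0.104), the second at 0.94 (SE 0.28; limma, adjusted p = 0.196). SMURF1, a ubiquitin ligase for SMADs, was called after PT at 0.43 (SE 0.13; limma, adjusted p = 0.198). Its dimmer probe gave 0.31 after PT and was not called (limma, adjusted p = 0.749). TMEPAI (PMEPA1), which holds receptor SMADs from the receptor, was called by the dimmer of its 2 probes only, at 1.09 after PT-G (SE 0.31; limma, adjusted p = 0.166) and 0.93 after PT (limma, adjusted p = 0.274).

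Of 9 other target genes, KLF10, a zinc finger gene that TGF-β induces early, rose by 1.23 after PT-G (SE 0.17; limma, adjusted p = 0.00386) and by 0.93 after PT (limma, adjusted p = 0.0229). CDKN1A, the cell cycle inhibitor p21, rose by 1.22 after PT-G (SE 0.27; limma, adjusted p = 0.047) and by 1.34 after PT (limma, adjusted p = 0.0324) by its brighter probe. Its dimmer probe gave 0.31 and 0.52 and was not called.

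On the Notch side, 1 of 9 ligands and receptors was called by its brightest probe after PT-G and after PT. This was JAG1, a Notch ligand, which rose by 1.06 (SE 0.23; limma, adjusted p = 0.0521) and 0.79 (limma, adjusted p = 0.19). DLL3 was called after PT by its dimmer probe only, at 0.54 (limma, adjusted p = 0.196), and NOTCH4 after p31-43 by its dimmer probe only, at 0.33 (limma, adjusted p = 1). MFNG, which modifies Notch receptors with sugar, was the 1 of 17 processing genes called, after PT-G at 0.65 (SE 0.22; limma, adjusted p = 0.286). Its dimmer probe gave 0.49 after PT-G and was not called (limma, adjusted p = 0.516).

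Among the 9 measured relatives and targets of HES1, HES2 rose by 0.43 after PT-G (SE 0.095; limma, adjusted p = 0.0525) and by 0.39 after PT. HES2 was dim, at 6.61 in MED-CTL, though well above background on all 16 arrays. Both HES2 calls were lost with median scaling (0.34 and 0.29; limma, adjusted p = 0.431 and 0.547). The PT call was also lost without run 3 (0.30; limma, adjusted p = 0.292). HEYL, a repressor of the HEY family, fell by 0.94 after PT-G (SE 0.25; limma, adjusted p = 0.123) and by 1.01 after PT (limma, adjusted p = 0.0951). HES5 was called higher after both but was well above background on 4 of 16 arrays, so no fold is given. Of 8 helix-loop-helix partners, ASCL2, a factor of intestinal stem cells, fell by 0.82 after PT-G (SE 0.12; limma, adjusted p = 0.00473) and by 0.91 after PT (limma, adjusted p = 0.00285). Its level was 13.80 ± 0.27 in MED-CTL and 13.96 ± 0.14 in p31-43 (SD, n = 4 arrays), by the brighter of 2 probes. The dimmer ASCL2 probe gave −0.52 after PT-G and −0.53 after PT and was not called (limma, adjusted p = 0.389 and 0.333).

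For the 15 genes called by their brightest probe after PT-G or PT, HES5 left out, the differences after p31-43 ran from −0.19 for JAG1 to 0.29 for SMURF1, none of them called in limma. Between PT-G and PT they ran from −0.13 for SMURF1 to 0.48 for SKIL, none called.

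**Figure D5:**
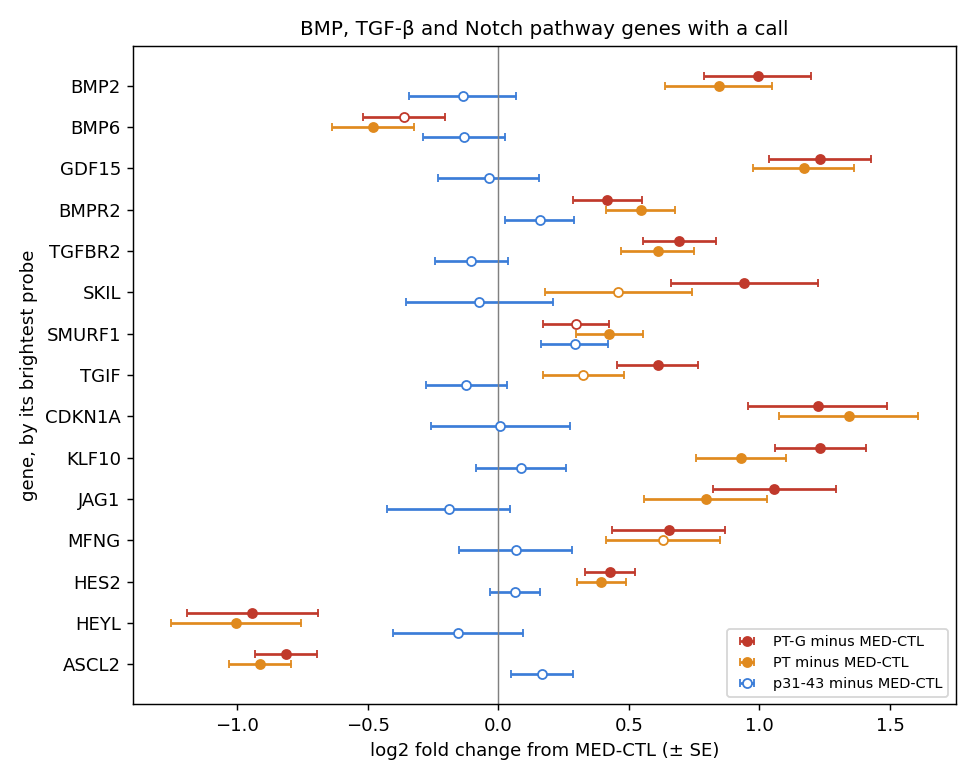
Log2 fold change from MED-CTL (x axis, ± SE from limma) of the 15 pathway genes called after PT-G or PT by their brightest probe (y axis), 4 arrays per condition; filled points were called at a nominal p under 0.01. HEYL, ASCL2 and BMP6 lie below 0 after PT-G and PT, and the p31-43 points lie between −0.19 and 0.29.

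The genes whose levels most resembled those of ID1, ID2 and HES1 were found over the 16 arrays among 13747 named genes well above background on all of them, each by its brightest probe. Beside ID1 were MOBKL2C (Pearson r 0.94), CTB-1048E9.5 (0.94) and JUNB (0.94), the last a partner of FOS proteins in AP-1. Beside the 3′ probe of ID2 were P15RS (0.91), MCL1 (0.91), which keeps cells from apoptosis, and KLF9 (0.90), a zinc finger factor. Beside the most 3′ probe of HES1 were PLA2G7 (0.97), CTSL2 (0.93) and LOXL1 (0.93). The 16 arrays share runs and conditions, so these values describe likeness on these arrays only.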

How the data were processed

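The authors deposited, per the file headers, image analysis output (Feature Extraction 9.5.3.1) with each spot's intensity on a linear scale. Its foreground intensity, used here, is neither background-subtracted nor normalized between arrays. It also holds a background-subtracted signal, used here as an alternative. A log2 table was deposited too, which equals the foreground medians after quantile normalization over all 45015 spots to within 5e-09. Here control spots (1639) were then left out with 1774 spot values marked as outliers, spots of a probe were averaged, and 40982 probes with at least 3 arrays per group were tested with limma 3.58.1 (R 4.3.3) in 1 model of the 4 conditions, 2-sided, with calls at an unadjusted p under 0.01 as in the paper. With 4 arrays a group precision is set by their number, and 4 arrays against 4 cannot give an exact permutation p under 0.0286. The model was tested on simulated arrays drawn independently of each other, without effects of run or slide. That test cannot show how the model handles arrays that deviate together. The paper's filter and re-annotation of probes were not used, and gene names are those of the array. The members and gene lists were chosen with earlier results of these data known. A pathway gene was named with a nominal p under 0.01 on a probe against MED-CTL, at most 4 a list. Arrays with the same replicate number deviated together across probes for PT-G and MED-CTL (correlations 0.396 to 0.858), p31-43 and MED-CTL (0.263 to 0.707), PT-G and p31-43 (0.574 to 0.837) and PT and p31-43 (0.137 to 0.603), but not in every pair for PT and MED-CTL (−0.015 to 0.410) or PT-G and PT (0.040 to 0.696). The runs were read from the dates in the array names, and MED-CTL numbers 1 and 2 are exchanged against them. Paired by run, the correlations with MED-CTL were 0.626 to 0.858 for PT-G, 0.536 to 0.707 for p31-43 and −0.015 to 0.619 for PT. The pairs without MED-CTL are the same either way. The main model has no block for the run. Alternatives are background subtraction, normexp (offset 50), mean foreground, median scaling, the deposited table, controls or marked spots treated otherwise, a filter on dim probes, blocks, array weights, an intensity trend, only the groups compared, and each array left out. Leaving out slide 3 or run 3 was chosen after seeing the data.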

Additional observations from a re-analysis of the deposited data

Results flagged for a closer look

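Of 44 groups of 4 arrays checked for a single array far from the rest (Dixon's test at 95%), 3 held one, where chance gives about 1 in 20. ID3 on PT-G replicate 3 was 9.1, against 10.26 to 10.48 on the other PT-G arrays. ID4 on PT replicate 1 was 5.87, against 6.10 to 6.14, near the background. SMAD6 on PT-G replicate 4 was 7.53, against 7.82 to 7.87. No call rested on these values.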

How the results depend on the processing

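The number of member probes called for PT-G against MED-CTL (2) and for PT-G against PT (0) was within 1.5 times in every alternative. For PT against MED-CTL (3) it was 1 with the background-subtracted signal and 1 without run 3, and 0 to 3 with 1 array left out (0 when it was MED-CTL replicate 2, and 1 when it was replicate 3 or 4 of MED-CTL or 1, 3 or 4 of PT). Over all probes this comparison called 1491 in the main model, 1131 with the background-subtracted signal and 1570 without run 3. For p31-43 against MED-CTL (0) it was 1, the 5′-ward ID2 probe, with the slide as a block. That block called 1526 of all probes in this comparison, and the main model 165. For PT-G against p31-43 (2) it was 1 with median scaling, 1 without slide 3, 1 without run 3, and 1 to 2 with 1 array left out (1 without p31-43 replicate 3 or 4 or PT-G replicate 2 or 4), ID1 being the call lost each time. Over all probes it called 1516 in the main model, 1171 with median scaling, 1707 without slide 3 and 1722 without run 3. For PT against p31-43 (1) it was 2 with the replicate block, 3 with a block for the run, 2 with one for the slide, 2 with one for 2 batches, and 1 to 2 with 1 array left out (2 without PT replicate 1). Calls over all 40982 probes rose with these blocks too, from 1285 to 2879, 3444, 4307 and 2158 in that order. The replicate block changed the call of 1 other member value, that of the 5′-ward ID2 probe after PT-G (0.91), and of no pathway value.

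Uncalled values that changed sign, by settings other than single arrays, were these. With array weights, PT-G gave −0.040 on the most 5′ and 0.024 on the middle HES1 probe, and p31-43 gave 0.080 on the 3′ ID2 probe and 0.011 on the middle HES1 probe. Without slide 3, the most 5′ HES1 probe gave −0.046 after PT-G and −0.12 after PT, the 3′ ID2 probe 0.16 and SMAD6 −0.077 after p31-43, and the 5′-ward ID2 probe 0.058 between PT-G and PT. Without run 3 the same values were −0.046, −0.14, 0.16, −0.077 and 0.16. With median scaling, p31-43 gave 0.046 on the 3′ ID2 probe, and 0.0038 and 0.037 on the most 3′ and middle HES1 probes. With the slide as a block the 5′-ward ID2 probe gave 0.16 between PT-G and PT. With 1 array left out, the most 3′ and middle HES1 probes after p31-43 ranged from −0.27 to 0.074 and from −0.39 to 0.21, the middle one after PT-G from −0.39 to 0.18, and the most 5′ one from −0.52 to 0.60 after PT-G, −0.12 to 0.87 after PT and −0.084 to 0.90 after p31-43. ID3 ranged from −0.11 to 0.47 after PT-G and −0.050 to 0.45 after p31-43, SMAD6 from −0.017 to 0.20 after p31-43, SMAD7 from −0.24 to 0.014 after PT-G, the 3′ ID2 probe from −0.15 to 0.049 after p31-43, and the 5′-ward one from −0.37 to 0.058 between PT-G and PT. The cause was not tested. Of 29 called pathway values, 13 lost the call in at least 1 setting other than single arrays and 10 with at least 1 array left out, and none changed direction. The signal over background limits ID4, HES5 and the dimmer NOTCH4 probe.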
